A study of Mus musculus with 2 samples.

Results

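The 9 genes described here encode Nodal, the activin subunits, their receptors and their secreted inhibitors: Nodal, Lefty1, Lefty2, Inhba, Inhbb, Acvr1b, Acvr2a, Acvr2b and Fst. They were taken as every probe set that the platform annotation assigns to 1 of these symbols and to no other gene, which gave 17 of 45101 probe sets and 9 of 18194 named genes. The study measured total RNA of 1 mouse embryonic stem (ES) cell line, genotype Del1.3MbWBS, in which 1.3 Mb of the region tied to Williams-Beuren syndrome (WBS) is deleted, on 2 arrays given as biological replicates. The labels do not say whether the replicates came from separate cultures, so the spread between them may be technical. Per the labels' protocols, the cells grew on a feeder layer in medium with 20% serum replacement and LIF, the cytokine that holds mouse ES cells undifferentiated. A line without the deletion was not analysed here, so no effect of the deletion on these genes was derived. None of the 9 genes lies on chromosome 5, the mouse chromosome of the WBS segment (0 of 9 in the GRCm38.p6 gene table).

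Nodal and the activins are secreted ligands of the transforming growth factor beta family. They bind a complex of type II receptors (Acvr2a, Acvr2b) and a type I receptor (Acvr1b, also called ALK4), which phosphorylates Smad2 and Smad3, and these enter the nucleus with Smad4. Nodal also needs a co-receptor of the EGF-CFC family such as Cripto, the product of Tdgf1, whereas activins do not. The Lefty proteins block Nodal, and follistatin, encoded by Fst, binds and neutralises activins. In the mouse embryo the pathway keeps the epiblast pluripotent and then patterns mesoderm and endoderm, and the Lefty genes and Nodal itself are among its targets.

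All 9 genes gave a signal above background, a call that 68.4% of all named genes also received. A gene counted as above background when its brightest probe set exceeded, both in the mean and on each array, the 95th percentile over 39 genes of olfactory receptors, the odour sensors of the nose. That threshold was 5.59 for the mean, on the log2 scale of robust multi-array average (RMA) values used throughout. The gene nearest to the threshold was Lefty2, 2.45 log2 units over it, and the farthest was Inhba, 7.02 log2 units over it. Of the 17 probe sets, 14 were above background, against 61.8% of all probe sets with 1 gene symbol. Each probe has its own affinity, so these values place a gene relative to background and do not rank the genes by abundance.

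Among the ligands, Nodal was above background on both of its probe sets. Probe set 1422058_at read 10.17 on replicate 1 and 10.12 on replicate 2, with a mean of 10.15 ± 0.033 (SD, n = 2). Probe set 1422057_at read 8.54 and 8.61. Both lay far over the threshold on each array, and their replicate differences had opposite signs.

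Inhba encodes the beta A subunit, which pairs with itself to form activin A. Its probe set 1422053_at read 12.62 and 12.61, with a mean of 12.61 ± 0.0056 (SD, n = 2). Its other probe set, 1458291_at, read 4.72 and 4.64, below the threshold on both arrays. The annotation ties the bright probe set to a RefSeq mRNA and the dim one to another GenBank record. The call for Inhba therefore rested on 1 of its 2 probe sets.

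Inhbb encodes the beta B subunit of activin B. Probe set 1426858_at read 9.82 and 9.79, and probe set 1426859_at read 7.05 and 7.09. Both were above background on each array, the dimmer by 1.48 log2 units in the mean.

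Among the receptors, Acvr1b, the type I receptor shared by Nodal and activins, was split between its probe sets. Probe set 1433725_at read 8.64 and 8.69, whereas 1422098_at read 5.40 and 5.33, 0.22 log2 units under the threshold in the mean. The dim probe set is the one that the annotation ties to a RefSeq mRNA, the reverse of the case of Inhba.

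Acvr2a, a type II receptor, was above background on both probe sets. It read 8.37 and 8.47 on 1437382_at and 7.44 and 7.49 on 1451004_at, higher on replicate 2 in both. A further probe set that the annotation assigns to Acvr2a together with Orc4 fell outside the rule.

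Acvr2b, the second type II receptor, had 3 probe sets. It read 8.66 and 8.67 on 1419140_at, 7.16 and 6.94 on 1439856_at, and 4.13 and 3.88 on 1440525_at. The first of these was nearly the same on both arrays, the second was above background but lower on replicate 2, and the third was below background on each array.

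Among the inhibitors, each Lefty gene had 1 probe set. Lefty1 read 8.86 and 8.78 on 1417638_at, with a mean of 8.82 ± 0.059 (SD, n = 2). Lefty2 read 8.05 and 8.04 on 1436227_at, with a mean of 8.04 ± 0.0073 (SD, n = 2). Both were above background on each array. The paralogues lie close together on chromosome 1, with 3 entries of the gene table between them, of which 1 is protein-coding. They are similar in sequence, and whether each probe set reads its own gene alone was not tested.

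Fst, the activin antagonist, read 10.70 and 10.60 on 1434458_at and 9.87 and 9.98 on 1421365_at. Both probe sets were far above background, but they disagreed on which replicate was higher.

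**Figure D1:**
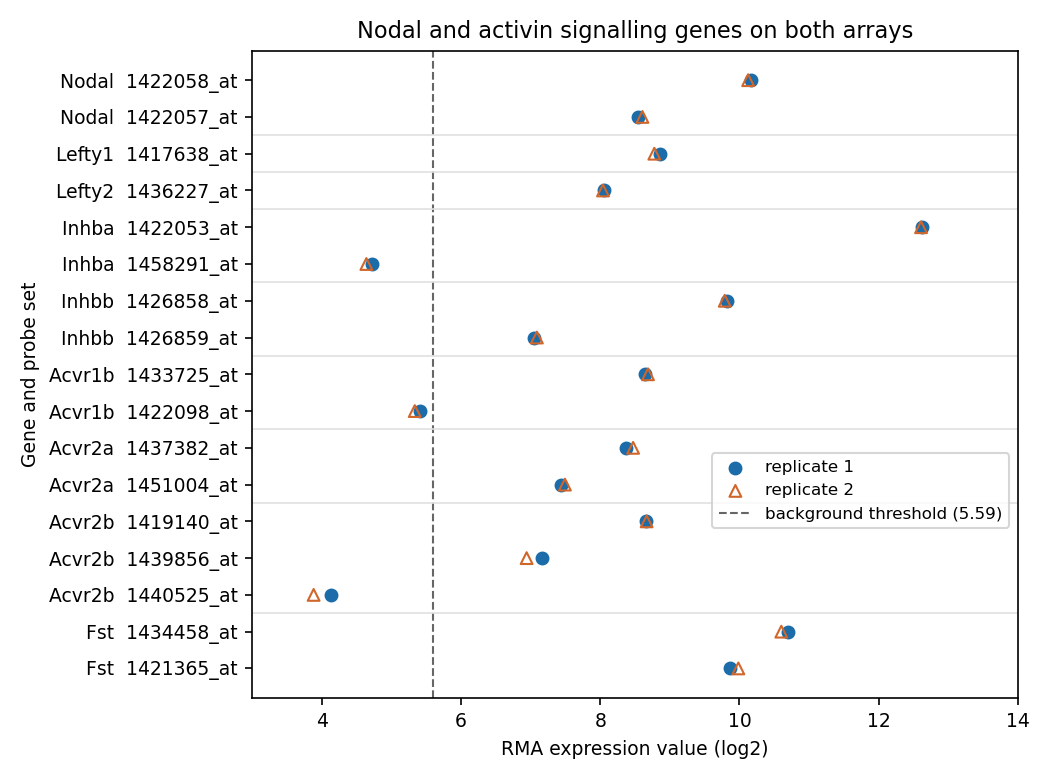
RMA expression value (log2, horizontal axis) of each of the 17 probe sets of the 9 genes, with replicate 1 as filled circles, replicate 2 as open triangles and the background threshold of 5.59 as a dashed line. The symbols of 14 probe sets lie to the right of the line, and 1 probe set each of Inhba, Acvr1b and Acvr2b lies to its left.

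The replicates were close for these genes. Over the 17 probe sets the difference, replicate 2 minus replicate 1, had an SD of 0.101 log2 units and a median size of 0.068, against a median size of 0.079 for all probe sets with 1 gene symbol. No gene differed by 1.5-fold (0 of 9), a size that 0.126% of all named genes reached. Of the 17 probe sets, 10 were higher on replicate 1 and 7 on replicate 2.

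The spread of the difference varies with brightness on these arrays: it was widest, at an SD of 0.195, for means near 5.11 and narrowest, at 0.0545, for the brightest probe sets. Each difference was therefore also set against the SD of the difference over the 2000 probe sets of nearest mean value. On that scale 5 of the 17 probe sets differed by more than 1 SD, where 29.4% of all probe sets with 1 gene symbol did. They were 1 probe set of Acvr2a, 2 of Acvr2b and 2 of Fst. For Fst the difference was -0.095 on 1434458_at and 0.12 on 1421365_at, or 1.43 and 1.71 times the SD at their brightness. For Acvr2b it was -0.22 on 1439856_at and -0.25 on the dim 1440525_at, against 0.0094 on the brightest probe set. In neither Fst nor Acvr2b did all probe sets show a difference of the same sign. For Acvr2a both did, at 0.10 on 1437382_at (1.03 times the SD at its brightness) and 0.052 on 1451004_at. No difference was read as a change of a gene between replicates.

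**Figure D2:**
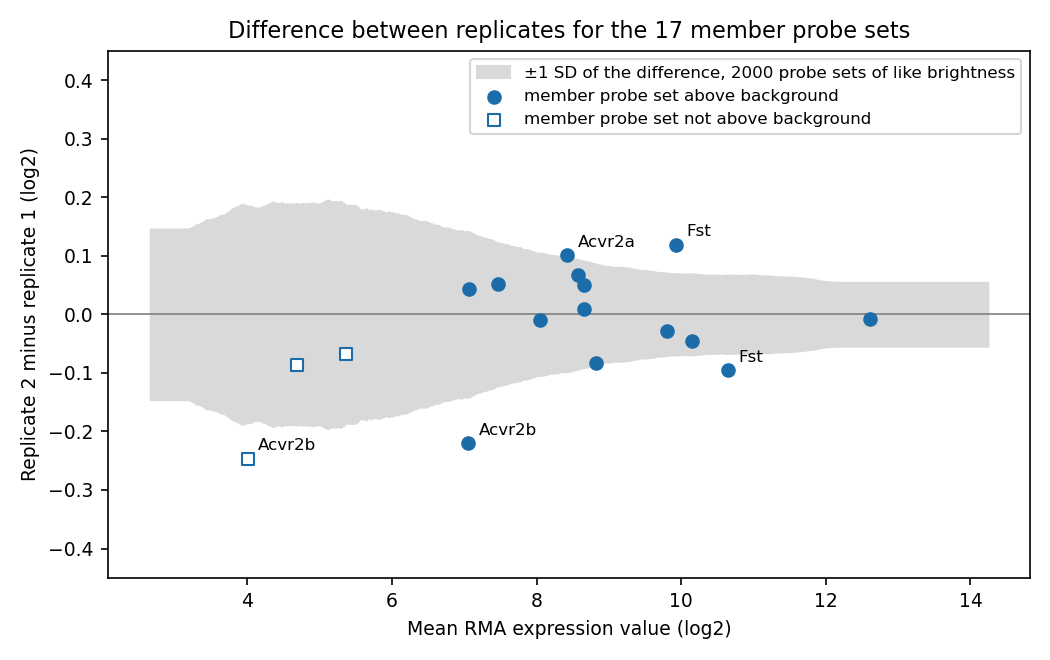
Difference between replicates (replicate 2 minus replicate 1, log2) against the mean RMA value (log2) for the 17 probe sets, filled circles above background and open squares below it; the grey band is 1 SD of the difference either way over the 2000 probe sets nearest in brightness. The 5 named points lie outside the band, and the largest difference is 0.25 log2 units in size.

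The rest of the pathway was described with 6 lists of 59 genes, of which 55 had a probe set of their own. Of these, 43 were above background, a share to be read against 68.4% of all named genes. The call used the brightest probe set, so a gene could receive it while its other probe sets were below background.

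Of other ligands and subunits of the transforming growth factor beta family, 6 of 8 measured genes were above background: Gdf3, Gdf11, Inha, Tgfb1, Tgfb2 and Tgfb3. Gdf3, a Nodal-related ligand of pluripotent cells, read 9.85 on replicate 1 and 9.91 on replicate 2. Inha, whose alpha subunit turns activin subunits into the antagonist inhibin, read 6.09 and 5.85, close to the threshold, and Gdf11 read 6.41 and 6.25. Tgfb1, a ligand of the related Tgfbr1 and Tgfbr2 receptors, read 6.15 and 6.28, with 1 of its 2 probe sets above background. The other activin-type subunit genes were not above background: Inhbc read 5.55 and 5.66, straddling the threshold, and Inhbe read 4.51 and 4.52. The beta subunits clearly above background were thus those of activins A and B.

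Of the convertases, enzymes that cleave precursor proteins such as that of Nodal, and the co-receptors, 5 of 6 were above background. Tdgf1, which encodes Cripto, read 12.42 and 12.48. The other EGF-CFC gene, Cfc1, read 4.87 and 4.97 and was not above background. The convertase genes Furin (8.53 and 8.38), Pcsk6 (8.03 and 7.86) and Pcsk5 (6.74 and 7.02) were, and so was Tgfbr3, which encodes betaglycan, the inhibin co-receptor. The call for Pcsk5 rested on 2 of its 5 probe sets, and that for Tgfbr3 on 1 of 2.

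Of the other receptors of the family, 7 of 9 were above background. Acvr1c, which encodes ALK7, the alternative type I receptor for Nodal and activin B, was not, at 4.86 and 4.94, and neither of its 2 other probe sets was. Acvrl1, a receptor of endothelial cells, read 5.58 and 5.56, just under the threshold. Acvr1 read 9.53 and 9.64, and Bmpr1a, a type I receptor for bone morphogenetic proteins, read 10.54 and 10.48. The receptors for transforming growth factor beta read 10.27 and 10.32 for Tgfbr1 and 11.07 and 11.02 for Tgfbr2. Bmpr1b, Bmpr2 and Amhr2 were above background as well. The calls for Tgfbr1 and Bmpr1b each rested on 1 of 3 probe sets.

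Of the other inhibitors, 5 of 8 were above background. Cer1 and Dand5, which encode embryonic Nodal antagonists other than the Lefty proteins, were not. Cer1 read 4.81 and 4.97, and Dand5 read 5.45 on both arrays, just under the threshold. Nog, an inhibitor of bone morphogenetic proteins, was also below. Fstl3, a follistatin relative, read 8.13 and 8.16, and Bambi, a pseudoreceptor, read 8.63 and 8.69. Tmeff1, which can block Nodal through Cripto, read 10.15 and 10.12. Chrd, an inhibitor of bone morphogenetic proteins, read 6.28 and 6.23. Grem1, another, was above background too.

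By the brightest probe set, all 16 intracellular transducers and regulators were above background. Smad2 read 9.07 and 9.01, Smad3 read 9.12 and 9.09, and the shared partner Smad4 read 11.53 and 11.57. The call for Smad3 rested on 1 of its 3 probe sets. Foxh1, the DNA-binding partner of Smad2 and Smad3 at Nodal targets, read 8.16 and 8.14. The others were Zfyve9, Trim33, Smad7, Smurf1, Smurf2, Ski, Skil, Tgif1, Tgif2, Drap1, Pmepa1 and Ppm1a. Chosen after their values were seen, the feedback inhibitor genes Smad7, Skil and Pmepa1, which the pathway induces in many cell types, had means of 10.03, 11.11 and 10.98. Whether the pathway induced them in these cells was not tested.

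Genes that Nodal or activin induces in the forming mesoderm and endoderm were measured above background in 4 of 8 cases. Eomes, a T-box factor, read 8.06 and 7.93. Foxa2 (5.74 and 5.70), Sox17 (5.84 and 5.78) and Mesp1 (5.95 and 5.92) were within 0.4 log2 units of the threshold. Mixl1 (5.10 and 5.06) and the organiser gene Gsc (4.03 and 3.98) were not above background, nor were Lhx1 and Fgf8. With vomeronasal and taste receptor genes in place of the olfactory receptor genes the count was 1 of 8, Eomes, because that threshold was 6.08.

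**Figure D3:**
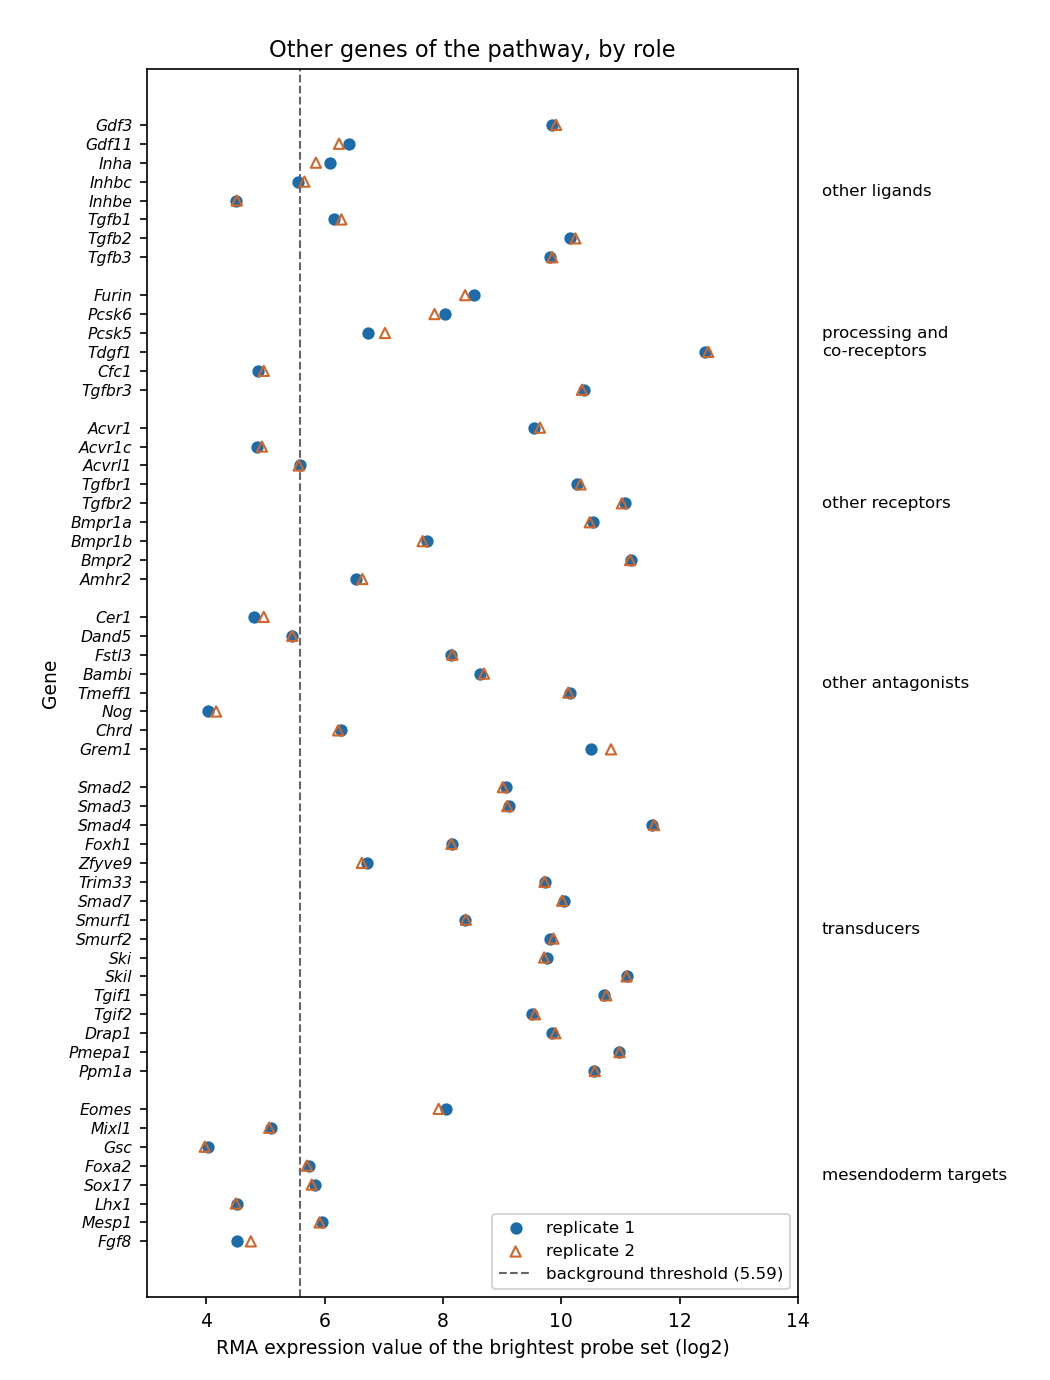
RMA expression value (log2) of the brightest probe set of 55 other genes of the pathway, grouped by role, with replicate 1 as filled circles, replicate 2 as open triangles and the background threshold of 5.59 as a dashed line. All 16 transducers lie to the right of the line. Of the 8 mesendoderm targets, the 4 genes Mixl1, Gsc, Lhx1 and Fgf8 lie on its left. Inhbe, Cfc1, Acvr1c, Acvrl1, Cer1, Dand5 and Nog also lie on its left, and Inhbc straddles it.

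Markers of ES cells and of fibroblasts were both measured above background in every case, so none of the values above can be assigned to ES cells alone. These were 11 of 11 measured ES cell markers and 17 of 17 measured fibroblast markers, against 68.4% of all named genes. Both lists were drawn up with earlier results of these data known, so the full counts carry no weight as a test. The ES cell factors read, on replicate 1 and replicate 2, 12.65 and 12.62 for Pou5f1, 12.15 and 12.06 for Nanog, 12.08 and 12.14 for Sox2 and 11.19 and 11.26 for Klf4. The rest of that list was Esrrb, Zfp42, Tfcp2l1, Dppa3, Dppa5a, Utf1 and Fgf4. The fibroblast collagen genes read 12.69 and 12.66 for Col1a1, 14.88 and 14.87 for Col1a2, 14.87 and 14.86 for Col3a1 and 12.72 and 12.74 for Col5a1. The rest of that list was Col6a1, Col6a2, Thy1, Pdgfra, Pdgfrb, Postn, Dcn, Lum, Loxl1, Mmp2, Twist1, Prrx1 and S100a4. The mean over the ES cell list was 10.99 on replicate 1 and 10.97 on replicate 2, and over the fibroblast list 12.04 and 12.06, so neither list moved by more than 0.02 log2 units between replicates. In bulk RNA, fewer cells of a type and less RNA per cell cannot be told apart. Fibroblasts are known to express Inhba and Fst, and pluripotent cells Nodal, Lefty1, Lefty2 and Tdgf1; the part of feeder cells in the values was not tested.

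Markers of other cell types, except those of blood cells, gave counts that moved with the setting. At the main threshold these counts are to be read against 68.4% of all named genes above background. Of the extraembryonic endoderm markers 8 of 10 were above background, but 5 of 10 with vomeronasal and taste receptor genes as background and 3 of 10 with the median of a gene's probe sets. Gata6 read 7.72 and 7.73, Sox7 read 5.74 and 6.06, Ttr read 6.50 and 6.60, and Apoa1 read 5.64 and 5.82. Hnf4a, Dab2, Foxq1 and Pdgfra, which is also in the fibroblast list, were above background as well, whereas Gata4 (5.48 and 5.41) and Afp (4.90 and 5.06) were not. Of the trophectoderm markers 2 of 7 were, Cdx2 at 5.64 and 5.83 and Tfap2c at 6.93 and 6.77, and the count ranged from 1 to 5 over the alternatives, with 4 on replicate 1 alone. Elf5 (4.13 and 4.34), Gata3 (5.30 and 5.05), Hand1, Ascl2 and Krt7 were not. Of the 4 measured blood cell markers 1 was, Cd3e at 6.58 and 6.55, without Ptprc (3.96 and 4.14), Itgam (3.87 and 3.98) and Cd79a.

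Promoter sequence was looked at as a feature that the choice of genes did not use. RefSeq sequence (GRCm38.p6) was at hand for 6 of the 9 genes, Nodal, Inhba, Inhbb, Acvr1b, Acvr2a and Acvr2b, and the 250 bases before the annotated start were used. The windows of Nodal and Inhba held 3 CpG dinucleotides each, against a median of 6 over all 32851 windows. Inhbb held 21, Acvr2b 24, Acvr1b 42 and Acvr2a 49. GC content was 43.2% for Inhba, 53.2% for Nodal, 68.0% for Inhbb, 72.8% for Acvr2b, 78.8% for Acvr1b and 82.0% for Acvr2a, with a median of 52.4% over all windows. The receptor genes thus had CpG-rich windows, and 2 of the 3 ligand genes did not. The lowest windows, those of Nodal and Inhba, and the highest, that of Acvr2a, are shown 5′ to 3′ on the strand of the gene, with CpG dinucleotides in capitals. They lie at chr10:61417722-61417971 (+ strand), chr13:16011601-16011850 (+ strand) and chr2:48813859-48814108 (+ strand).
Nodal: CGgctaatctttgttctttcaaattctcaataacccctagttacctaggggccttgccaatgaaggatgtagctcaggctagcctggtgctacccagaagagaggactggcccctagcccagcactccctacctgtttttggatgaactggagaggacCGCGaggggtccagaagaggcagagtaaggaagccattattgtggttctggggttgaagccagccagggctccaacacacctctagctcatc
Inhba: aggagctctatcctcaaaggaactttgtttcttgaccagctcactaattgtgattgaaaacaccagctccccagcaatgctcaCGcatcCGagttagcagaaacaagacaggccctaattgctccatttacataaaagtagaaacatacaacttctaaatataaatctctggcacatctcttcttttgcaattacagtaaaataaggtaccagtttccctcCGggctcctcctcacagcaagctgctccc
Acvr2a: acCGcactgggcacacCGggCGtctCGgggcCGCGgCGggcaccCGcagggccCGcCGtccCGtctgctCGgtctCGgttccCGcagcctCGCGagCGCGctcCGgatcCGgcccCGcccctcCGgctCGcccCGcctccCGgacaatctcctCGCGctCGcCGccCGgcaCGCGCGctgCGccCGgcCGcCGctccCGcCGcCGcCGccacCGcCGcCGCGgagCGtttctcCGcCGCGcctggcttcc

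The same windows were searched on both strands for short motifs that do not overlap each other. The TATA motif TATAAA was found in the window of Inhba alone, 91 to 86 bases before the start, and 12.4% of all windows hold it. The SMAD motif CAGAC was found once each for Acvr2a and Acvr2b, where 42.2% of all windows hold it. The FOXH1 motif AATCCACA was in none of the 6 windows and is in 0.718% of all windows. A match is a run of letters and not a shown binding site, and the lack of one says only that the letters are not in this window.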

How the data were processed

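The deposited table holds log2 expression values that the authors computed with RMA, per the submitters' processing notes; the version and the set of arrays normalized jointly are not stated there. RMA corrects background, quantile-normalizes and summarises probes, so a shift common to most genes is removed. The precision is limited by the number of arrays. Each SD rests on 2 values, and no p-value was computed, since both arrays belong to 1 group. No column was left unused (0). Median values were 6.01 on replicate 1 and 6.01 on replicate 2.

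Of 45101 probe sets, 34958 had 1 gene symbol in the platform annotation, 932 had several and 9211 had none; the brightest probe set stood for a gene. All 9 members matched the GRCm38.p6 gene table by identifier and symbol. The background threshold, the fold size and the local SD were computed with Python 3.11.15, pandas 2.3.3 and numpy 2.4.6, and the code was run on simulated data. The simulated silent genes were drawn with the mean and SD of the olfactory receptor genes. That run therefore checks the code and not the choice of threshold. The 9 members and the lists were chosen with earlier results of these data known. Every measured gene of each list was named, with values for the first 4 above background and the first 2 not above it, and no gene of like pattern was named, as 2 arrays of 1 group give none. Alternatives were the median of a gene's probe sets, unshared probe sets (no _a_at, _s_at or _x_at), the 90th and 99th percentiles, vomeronasal and taste receptor genes (37), a 2-fold size, median centring, loess (fraction 0.3, statsmodels 0.14.6) and each array alone.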

Additional observations from a re-analysis of the deposited data

How the results depend on the processing

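The count of 9 of 9 genes above background was the same under every alternative run, and 0 of 9 differed by 1.5-fold under any. The count of 14 of 17 probe sets became 15, with the dim Acvr1b probe set added, at the 90th percentile (threshold 5.07) and with unshared probe sets (threshold 5.28). Of 99 alternative counts and SDs, 92 stayed within 1.5 times the reported value. That margin hides small shifts, such as other ligands going from 6 to 5 or 7. Some values could not have moved: a 2-fold size cannot raise a count of 0 at 1.5-fold, and a lower threshold cannot reduce a full count. No member probe set is a shared one, so leaving those out could not change the SD over members. With vomeronasal and taste receptor genes as background, the mesendoderm targets fell to 1 of 8, the endoderm markers to 5 of 10 and the trophectoderm markers to 1 of 7. With the median of a gene's probe sets the endoderm count was 3 and the trophectoderm count 4. The median also gave 15 of 16 transducers, 4 of 6 convertases and co-receptors, 6 of 9 other receptors and 10 of 11 ES cell markers. Under it other ligands rose to 7 of 8 and other antagonists to 6 of 8. At the 90th percentile the trophectoderm count was 5, and it was 4 with replicate 1 alone and 2 with replicate 2 alone. The higher or lower threshold accounts for the changes with other background genes and percentiles. On replicate 1 alone Hand1 (5.79) and Krt7 (5.79) also passed its threshold of 5.60, and on replicate 2 alone neither passed. The median setting changed both the value of a gene and the threshold (5.28), and the part of each was not tested. Taking the median of probe sets, the level was lower by 0.36 to 3.97 log2 units in the 7 genes that have several, most for Inhba. No paired analysis was possible because there is only 1 group. Near the threshold, a silent gene and a weakly expressed one cannot be told apart from these signals.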

Other observations

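Probe sets that the annotation assigns to several genes were outside the rule. The one for Acvr2a and Orc4, 1457451_at, read 4.01 on replicate 1 and 4.18 on replicate 2 and was below background. The one for Gdf1, which encodes a Nodal co-ligand, and Cers1, 1416900_s_at, read 6.27 and 6.17 and was above background; which of the genes it reads was not tested. These were chosen after their values were seen.

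Among the 55 other genes of the pathway, Grem1 had the largest difference between replicates, 10.50 on replicate 1 and 10.84 on replicate 2, or 0.34 log2 units. It was singled out after its values were seen.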
